A study of Homo sapiens with 22 samples.

Results

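Messenger RNA of a human renal cancer cell line was compared between cells in which an enhancer site was targeted by CRISPR interference with the guide iMAE-1.1 or with the guide iMAE-1.2, and cells with a control guide, SC. The comparison held 12 of the 22 libraries of the series, identified by their titles: 4 of iMAE-1.1 (replicates 1 to 4), 4 of iMAE-1.2 (replicates 1 to 4) and 4 of SC (replicates 3 to 6). The 8 libraries of the 2 guides are called iMAE-1 here. SC replicates 3 to 6 were taken as controls because they resemble the iMAE-1 libraries in library make-up, which the titles do not state. SC replicates 1 and 2 were not among the controls and entered 1 alternative only. All 12 libraries came from 786-M1A, a metastatic derivative of the clear cell renal carcinoma line 786-O, grown in standard medium and collected near confluence. The labels give the line, the guide and a replicate number. They do not say which DNA element or gene the iMAE-1 guides target, how many clones or infections stand behind a group, or whether libraries of a group came from separate cultures, so every p-value here sets a difference against the scatter of libraries, and that scatter may be technical.

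In CRISPR interference a Cas9 protein without cutting activity is led by a guide RNA to a chosen stretch of DNA together with a repressor, and genes served by that stretch can lose expression. MAE is used in the study for a metastasis-associated enhancer, a stretch of DNA that raises the transcription of genes at a distance. Clear cell renal carcinoma typically lacks the VHL protein, so that HIF transcription factors, which in other cells act in low oxygen, stay active and keep genes such as VEGFA and CXCR4 switched on. Several other programmes are readily read from renal carcinoma RNA. Interferon signalling acts through transcription factors such as IRF9, which bind a DNA element named ISRE in promoters of antiviral genes. Sterol synthesis is driven by SREBF2, which is released when membranes hold little cholesterol.

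The sum of estimated read counts per library, in units of 1e6, was 11.8 to 22.1 in iMAE-1.1, 9.06 to 23.7 in iMAE-1.2 and 10.5 to 17.1 in SC. Of the 25343 genes listed, 14560 had enough counts to be tested. Levels are counts per 1e6 (CPM) after TMM scaling, fold changes are log2 of iMAE-1 over SC with a standard error (SE), and calls were made where edgeR's quasi-likelihood test gave an adjusted p below 0.05. The 8 iMAE-1 libraries fell into 2 quartets that cut across the guides: iMAE-1.1 replicates 1 and 2 lay with iMAE-1.2 replicates 3 and 4 (quartet A), and iMAE-1.1 replicates 3 and 4 with iMAE-1.2 replicates 1 and 2 (quartet B). The quartets were found from the data and are no groups of the study. What sets them apart was not tested. Each holds both guides in equal number. SC replicates 4 and 6 (chi-square per gene averaging 2.24) and SC replicates 3 and 5 (3.03) were the closest pairs of the 12 libraries and may not be independent. Markers of renal epithelium summed to 1408 to 1573 CPM in iMAE-1 and 1423 to 1490 CPM in SC, mostly from KRT8, PAX8 and KRT18. None of the 8 was called, but CA9, at 0 to 0.0426 CPM in iMAE-1 and 0 CPM in SC, was too low to be tested. PAX2 was at 7.37 to 12.93 CPM in iMAE-1 and 12.87 to 17.36 CPM in SC. Lymphoid markers were under 1 CPM each in every library, with CD3E at 0. Markers of myeloid cells summed to 31.7 to 42.8 CPM in iMAE-1 and 33.2 to 35.2 CPM in SC, mostly from CD68 and LYZ. Endothelial markers summed to 1.87 to 3.92 CPM in iMAE-1 and 2.53 to 3.40 CPM in SC. The 5 fibroblast markers summed to 3.97 to 7.98 CPM in iMAE-1 and 8.6 to 9.96 CPM in SC, with PDGFRA at 0 throughout and none of the others called. Of these others DCN and FAP were too low to be tested. Their part in the results was not tested.

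**Figure D1:**
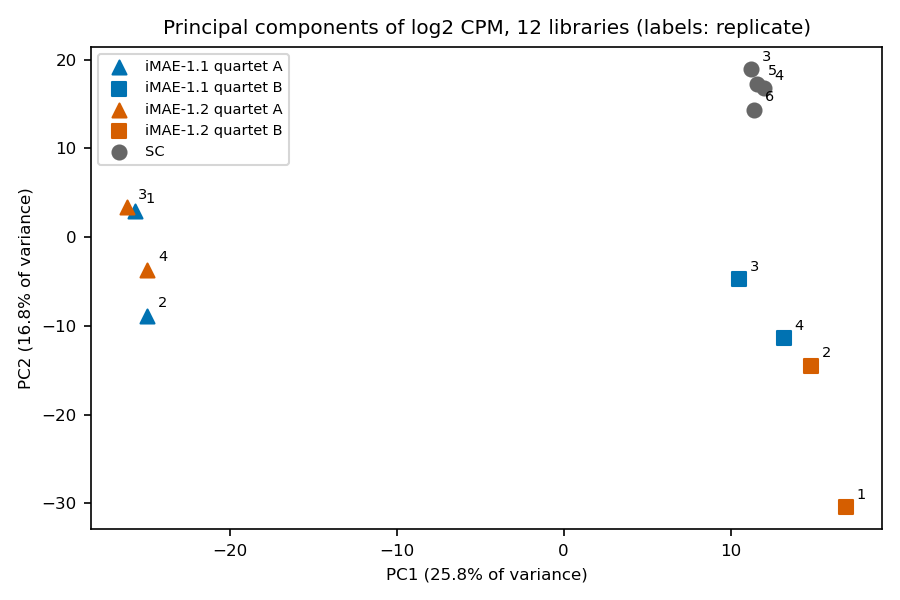
Principal components 1 and 2 of the log2 CPM of all tested genes, 1 point per library, with the replicate number beside it. Color gives the group (iMAE-1.1, iMAE-1.2, SC) and shape the quartet. The first component, with 25.8% of the variance, separates quartet A from quartet B and SC, and the second, with 16.8%, has the 4 SC libraries at its upper end.

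With iMAE-1, 556 genes changed, or 3.82% of those tested. Of these 261 were higher (1.79% of those tested) and 295 lower (2.03%) than in SC. Most changes were small, with a median log2 fold change of 0.38 among genes that rose and -0.37 among genes that fell, and 57 of the 556 changed at least by a factor of 2 (32 higher and 25 lower). The levels of the 8 iMAE-1 libraries and of the 4 SC libraries did not overlap for 468 of the 556 called genes, and for 812 of all genes tested (5.58%, with 2.65% higher and 2.93% lower). Taken alone against the same SC libraries, iMAE-1.1 had 186 called genes (1.28% of those tested, with 0.652% higher and 0.625% lower) and iMAE-1.2 had 302 (2.07%, with 1.06% higher and 1.02% lower). All 186 called with iMAE-1.1 and 291 of the 302 called with iMAE-1.2 were among the 556, with the same sign, and 152 of the 556 were called with each guide. The iMAE-1 value is the mean of the 2 guide values against the same SC libraries, so this inclusion was largely fixed in advance. Set directly against each other, the 2 guides had no called gene by edgeR, DESeq2 or limma. In edgeR 222 of the 14560 genes had an unadjusted p under 0.05, a smaller share than the 0.05 that chance alone gives. Each guide spans both quartets, so the scatter used in this test holds the difference between quartets. Without quartet A, 2277 genes were called against SC (1123 higher, or 7.58% of those tested, and 1154 lower, or 7.79%), and without quartet B 3187 (1385 higher, or 9.39%, and 1802 lower, or 12.2%). The quartets were cut from these same data, and leaving 1 out takes the difference between quartets out of the scatter. Calls and p-values of these fits are therefore no support for a gene or a list. Leaving out an SC library lowered the number called to 216 without SC replicate 3, 234 without replicate 4, 250 without replicate 5 and 217 without replicate 6. When the 4 libraries of each group were joined into 2 sums, by the split with the smallest mean chi-square per gene, 11 genes were called. In each guide the sums were those of its quartet A and of its quartet B libraries. The scatter of that fit thus held the full difference between quartets, so a gene not called there may still differ from SC. Of the genes named below, MYH10, DKK3, F3, STC1, MALL, CYP1B1, HNRNPA1P33 and MT1L were called there and the others were not.

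Among the genes that rose with both guides were those for a cytohesin binding protein, a nonmuscle myosin, a secreted Dickkopf protein, tissue factor and a PDGF receptor. The 14 strongest rises and 14 strongest falls were chosen among called genes with a mean of at least 5 CPM in a group. MT1L, with a larger fall, was under this minimum and is given below. The chosen genes were also required to have no overlap between their iMAE-1 and SC libraries. For these genes, IFI27 and OAS1 included, the lack of overlap was fixed by the choice and is no result. CYTIP, whose product binds cytohesins and is known from leukocyte adhesion, had 6.22, 5.92, 15.5 and 14.5 CPM in iMAE-1.1 and 16.3, 17.3, 6.16 and 6.34 CPM in iMAE-1.2, against 1.75, 1.9, 1.53 and 1.72 CPM in SC. The groups did not overlap, and within each guide the libraries of quartet B stood above those of quartet A. The log2 fold change was 2.68 ± 0.46 (adjusted p = 0.0100), and 3.21 without quartet A and 1.83 without quartet B. By guide it was 2.63 ± 0.49 with iMAE-1.1 (adjusted p = 0.0257) and 2.73 ± 0.50 with iMAE-1.2 (adjusted p = 0.0197). MYH10, the gene of the nonmuscle myosin IIB heavy chain, was at 26.7, 28.4, 17.1 and 17.2 CPM in iMAE-1.1 and 19.2, 18.8, 24.8 and 22.6 CPM in iMAE-1.2, against 3.55, 3.13, 3.4 and 4.31 CPM in SC. Its lowest iMAE-1 library was far above the highest SC library, with the higher values in quartet A. The log2 fold change of MYH10 was 2.58 ± 0.18 (adjusted p = 9.7e-07), and by guide 2.61 with iMAE-1.1 and 2.55 with iMAE-1.2. DKK3, for a secreted glycoprotein of the Dickkopf family, had 13.4, 10.4, 11.6 and 10.2 CPM in iMAE-1.1 and 8.05, 10.7, 13 and 12.6 CPM in iMAE-1.2, against 3.24, 2.94, 3.07 and 2.53 CPM in SC, without overlap. DKK3 changed by 1.94 ± 0.15 (adjusted p = 1.55e-06, with 1.96 for iMAE-1.1 and 1.93 for iMAE-1.2). With all 6 SC libraries as controls the 3 values were 1.32 (adjusted p = 0.117) for CYTIP, 0.71 (adjusted p = 0.378) for MYH10 and 0.42 (adjusted p = 0.553) for DKK3, so each of these calls depended on the choice of SC libraries.

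Tissue factor, the cell surface protein that starts blood coagulation, is encoded by F3. F3 was at 272, 269.7, 226 and 209 CPM in iMAE-1.1 and 212, 237, 275 and 281 CPM in iMAE-1.2, against 80.1, 82.5, 76 and 82.4 CPM in SC. All 8 iMAE-1 libraries were above all SC libraries, by more than they differed among themselves. The log2 fold change was 1.63 ± 0.09 (adjusted p = 3.73e-08), and it was 1.60 ± 0.10 with iMAE-1.1 (adjusted p = 5.19e-07) and 1.65 ± 0.10 with iMAE-1.2 (adjusted p = 2.51e-07). With all 6 SC libraries as controls it was 1.33 (adjusted p = 0.000771). PDGFRB, the receptor for the platelet-derived growth factors that act on pericytes and fibroblasts, had 266, 338, 407 and 479 CPM in iMAE-1.1 and 499, 538, 247 and 302 CPM in iMAE-1.2, against 135, 159.6, 138 and 157 CPM in SC. The groups did not overlap, and quartet B held the 4 highest values. Its log2 fold change was 1.38 ± 0.24 (adjusted p = 0.0113, with 1.34 for iMAE-1.1 and 1.43 for iMAE-1.2), and 1.70 without quartet A and 0.96 without quartet B. With all 6 SC libraries as controls it was 1.29 (adjusted p = 0.0028). STC1, for the secreted hormone stanniocalcin, was at 8.34, 10.1, 6.14 and 8.03 CPM in iMAE-1.1 and 9.71, 11.4, 8.64 and 10.4 CPM in iMAE-1.2, against 3.12, 3.89, 3.13 and 3.39 CPM in SC, again with no overlap. The change in STC1 was 1.42 ± 0.14 (adjusted p = 4.39e-05, with 1.27 for iMAE-1.1 and 1.58 for iMAE-1.2), and 0.38 (adjusted p = 0.498) with all 6 SC libraries as controls. MALL, a small membrane protein of raft-like domains, had 34, 26.5, 35.8 and 31.9 CPM in iMAE-1.1 and 32.6, 32, 32.6 and 32.3 CPM in iMAE-1.2, against 12.2, 13.8, 14.5 and 11.9 CPM in SC. The iMAE-1 libraries lay within a narrow band well above SC. MALL changed by 1.31 ± 0.09 (adjusted p = 2.85e-07, with 1.30 for iMAE-1.1 and 1.31 for iMAE-1.2) on the log2 scale, and by 0.49 (adjusted p = 0.29) with all 6 SC libraries.

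**Figure D2:**
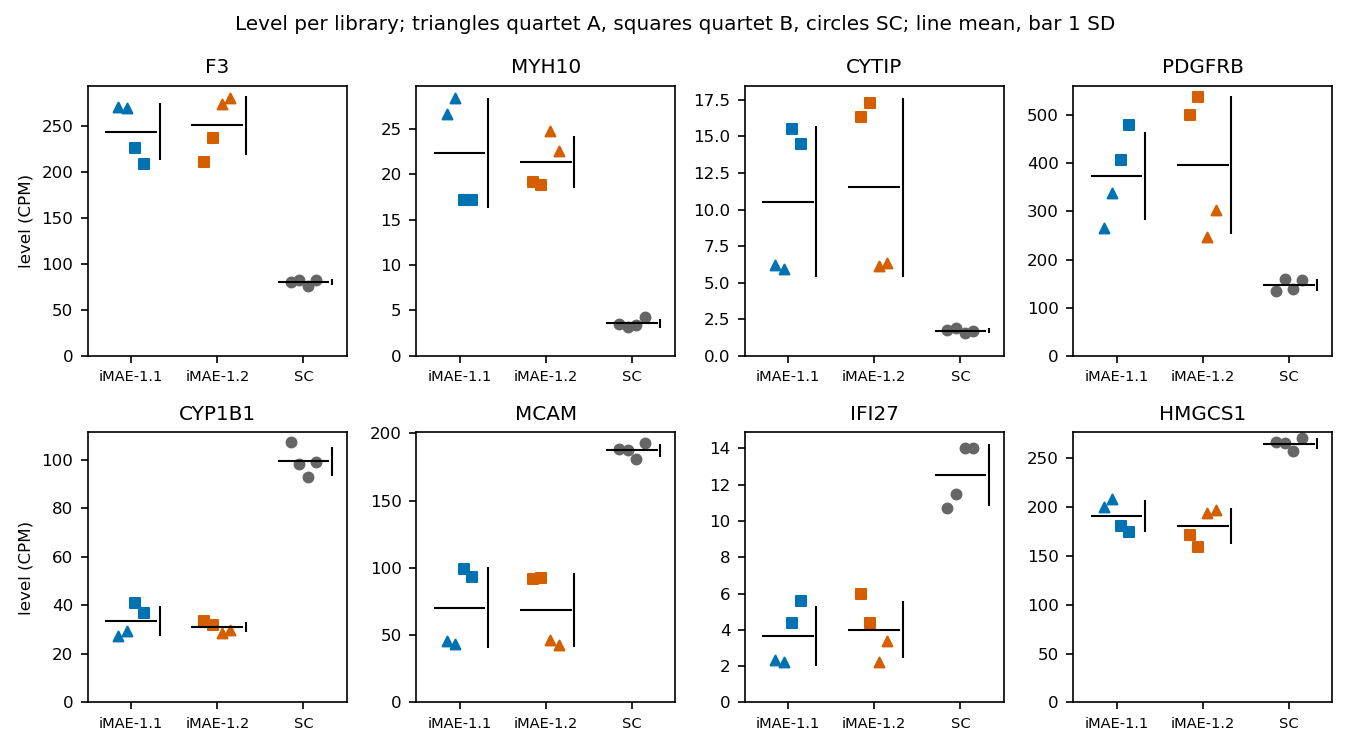
Level in CPM of 8 genes in each library of iMAE-1.1, iMAE-1.2 and SC (4 each). Triangles are quartet A, squares quartet B and circles SC, horizontal lines are group means and vertical bars 1 SD. Within each guide CYTIP, PDGFRB and MCAM differ between quartets by a larger factor than F3 and CYP1B1 do. No iMAE-1 library overlaps SC for any of the 8 genes, which for all but HMGCS1 was a condition of the ranking.

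Smaller rises completed the upper end of the ranking. CCDC64, for an adaptor of dynein motors, had 7.43 to 14.8 CPM in iMAE-1.1 and 7.5 to 13.6 CPM in iMAE-1.2, against 3.99 to 4.84 CPM in SC. The antisense transcript VPS9D1-AS1 had 6.95 to 8.08 CPM in iMAE-1.1 and 6.68 to 9.71 CPM in iMAE-1.2, against 3.001 to 3.89 CPM in SC. No source used here says whether the counting was by strand, so its reads cannot be told apart from those of the gene it overlaps. TRPM2, a cation channel opened by oxidative stress, had 4.92 to 5.43 CPM in iMAE-1.1 and 3.8 to 7.17 CPM in iMAE-1.2, against 2.37 to 2.62 CPM in SC. The log2 fold change was 1.29 ± 0.19 (adjusted p = 0.00174, with 1.27 for iMAE-1.1 and 1.32 for iMAE-1.2) for CCDC64, 1.13 ± 0.13 (adjusted p = 0.000174, with 1.12 for iMAE-1.1 and 1.14 for iMAE-1.2) for VPS9D1-AS1 and 1.05 ± 0.17 (adjusted p = 0.00288, with 1.05 for iMAE-1.1 and 1.05 for iMAE-1.2) for TRPM2. SATB1, a chromatin organiser, was at 13.2 to 17.8 CPM in iMAE-1.1 and 13.8 to 17.9 CPM in iMAE-1.2, against 7.36 to 8.67 CPM in SC, and SYTL4, which acts in vesicle docking, at 5.93 to 7.84 CPM in iMAE-1.1 and 5.45 to 7.91 CPM in iMAE-1.2, against 2.53 to 4.65 CPM in SC. Neither overlapped between the groups. Their log2 fold changes were 0.96 ± 0.10 (adjusted p = 0.000107, with 0.94 for iMAE-1.1 and 0.98 for iMAE-1.2) and 0.87 ± 0.16 (adjusted p = 0.00649, with 0.88 for iMAE-1.1 and 0.86 for iMAE-1.2), and 0.54 (adjusted p = 0.107) for SYTL4 with all 6 SC libraries. PPARG, a nuclear receptor of fat and lipid metabolism, had 14.4, 11.9, 7.82 and 7.62 CPM in iMAE-1.1 and 7.06, 8.43, 14.9 and 13.6 CPM in iMAE-1.2, against 5.3, 5.97, 5.6 and 5.86 CPM in SC. Its 4 highest values were those of quartet A, and its log2 fold change was 0.92 ± 0.23 (adjusted p = 0.0406, with 0.87 for iMAE-1.1 and 0.97 for iMAE-1.2), and 0.46 without quartet A and 1.27 without quartet B. The call of PPARG was lost without iMAE-1.1 replicate 2, or without iMAE-1.2 replicate 4, or without any 1 of the 4 SC libraries (adjusted p = 0.0684 to 0.137). IL7R, the interleukin-7 receptor chain, had 22.6, 18.4, 16.5 and 14.6 CPM in iMAE-1.1 and 13.3, 10.8, 19.9 and 22 CPM in iMAE-1.2, against 9.85, 9.58, 9.004 and 9.999 CPM in SC, also highest in quartet A. IL7R changed by 0.84 ± 0.18 (adjusted p = 0.0211, with 0.90 for iMAE-1.1 and 0.78 for iMAE-1.2), and by 0.49 without quartet A and 1.102 without quartet B, and its call was lost without any 1 of the 4 SC libraries (adjusted p = 0.0715 to 0.0815). Neither PPARG, with 0.50 (adjusted p = 0.198), nor IL7R, with 0.50 (adjusted p = 0.139), was called with all 6 SC libraries.

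Among the strongest falls, though not the largest of them, was CYP1B1, a cytochrome P450 that is a textbook target of the aryl hydrocarbon receptor. CYP1B1 had 27.3, 29.5, 40.8 and 36.7 CPM in iMAE-1.1 and 33.5, 31.8, 28.7 and 29.9 CPM in iMAE-1.2, against 107, 98.2, 92.9 and 99.1 CPM in SC. The highest iMAE-1 value was under the lowest SC value. CYP1B1 fell by a log2 fold change of -1.62 ± 0.09 (adjusted p = 3.73e-08), which was -1.56 ± 0.10 with iMAE-1.1 (adjusted p = 6.77e-07) and -1.68 ± 0.11 with iMAE-1.2 (adjusted p = 2.51e-07). With all 6 SC libraries as controls it was -1.72 (adjusted p = 1.6e-07). AHR, the receptor itself, was at 35.8 to 47.5 CPM in iMAE-1.1 and 38.1 to 43.6 CPM in iMAE-1.2, against 41.6 to 53.6 CPM in SC. These ranges overlapped and AHR was not called, with -0.25 ± 0.08 (adjusted p = 0.129, with -0.24 for iMAE-1.1 and -0.26 for iMAE-1.2). It was -0.14 without quartet A (adjusted p = 0.208) and -0.37 without quartet B (adjusted p = 0.000793), where it was called. The quartets were cut from the same data, so that call is no support for a fall of AHR. MCAM, a cell adhesion molecule first described in melanoma, had 45.5, 43.7, 99.4 and 93.2 CPM in iMAE-1.1 and 92.1, 92.6, 46.7 and 43 CPM in iMAE-1.2, against 188, 188, 181 and 193 CPM in SC. The groups were far apart, and quartet A held the lower values in each guide. Its log2 fold change was -1.43 ± 0.28 (adjusted p = 0.0223, with -1.40 for iMAE-1.1 and -1.46 for iMAE-1.2), and -0.99 without quartet A and -2.07 without quartet B, and the call was lost without any 1 of the 4 SC libraries (adjusted p = 0.0627 to 0.07). CYB5A, for the electron carrier cytochrome b5, had 6.15, 6.67, 1.03 and 2.14 CPM in iMAE-1.1 and 1.21, 2.04, 6.85 and 5.87 CPM in iMAE-1.2, against 18.4, 14.4, 15.2 and 14.3 CPM in SC. In contrast to MCAM its lower values were in quartet B. CYB5A changed by -1.97 ± 0.45 (adjusted p = 0.0399, with -2.01 for iMAE-1.1 and -1.93 for iMAE-1.2), and by -3.17 without quartet A and -1.29 without quartet B, with the call lost without iMAE-1.1 replicate 4, or without iMAE-1.2 replicate 1, 2 or 4, or without any 1 of the 4 SC libraries (adjusted p = 0.0544 to 0.119). 

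HNRNPA1P33, annotated as a pseudogene of HNRNPA1, had 2.65, 2.002, 2.78 and 2.24 CPM in iMAE-1.1 and 3.09, 1.87, 2.25 and 2.39 CPM in iMAE-1.2, against 7.98, 7.87, 6.4 and 7.99 CPM in SC. It shares sequence with its parent gene and other copies, so the share of reads assigned to it is uncertain. The difference was -1.67 ± 0.14 (adjusted p = 5.22e-06, with -1.64 for iMAE-1.1 and -1.69 for iMAE-1.2) on the log2 scale. NES, the intermediate filament nestin, was at 1.17 to 4.56 CPM in iMAE-1.1 and 1.64 to 3.15 CPM in iMAE-1.2, against 5.18 to 5.75 CPM in SC, and LOXL1, an enzyme that cross-links elastin, at 15.5 to 30.8 CPM in iMAE-1.1 and 15.8 to 31.2 CPM in iMAE-1.2, against 43.2 to 49.2 CPM in SC. Both stood below SC in every iMAE-1 library. The value for NES was -1.12 ± 0.28 (adjusted p = 0.0404, with -1.04 for iMAE-1.1 and -1.19 for iMAE-1.2), and -0.66 without quartet A and -1.85 without quartet B. That for LOXL1 was -1.03 ± 0.23 (adjusted p = 0.0328, with -0.99 for iMAE-1.1 and -1.06 for iMAE-1.2), and -0.65 without quartet A and -1.56 without quartet B. Their calls were lost without iMAE-1.1 replicate 1 or 3, or without iMAE-1.2 replicate 3 or 4, or without any 1 of the 4 SC libraries (adjusted p = 0.0552 to 0.124) for NES, and without iMAE-1.2 replicate 1, 3 or 4, or without any 1 of the 4 SC libraries (adjusted p = 0.0507 to 0.0999) for LOXL1. LOXL1 was at -0.64 (adjusted p = 0.205) with all 6 SC libraries. LOXL1-AS1, annotated antisense to LOXL1, had 3.04 to 5.82 CPM in iMAE-1.1 and 3.42 to 5.62 CPM in iMAE-1.2, against 6.84 to 8.17 CPM in SC. Its reads cannot be told apart from those of LOXL1 where the genes overlap. It changed by -0.83 ± 0.17 (adjusted p = 0.0128, with -0.76 for iMAE-1.1 and -0.90 for iMAE-1.2), with the call lost without SC replicate 3 or 5 (adjusted p = 0.0567 to 0.0619) and, at -0.55 (adjusted p = 0.153), with all 6 SC libraries.

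Further falls concerned an enzyme of cyclic AMP, a matrix protease and genes of less known function. PDE4A, which degrades cyclic AMP, was at 4.37 to 8.02 CPM in iMAE-1.1 and 4.09 to 6.95 CPM in iMAE-1.2, against 11 to 12.8 CPM in SC, and ADAMTS15, a protease that cleaves proteoglycans, at 4.29 to 6.85 CPM in iMAE-1.1 and 4.63 to 5.96 CPM in iMAE-1.2, against 8.62 to 9.67 CPM in SC. The log2 fold changes were -0.98 ± 0.17 (adjusted p = 0.00423, with -0.89 for iMAE-1.1 and -1.07 for iMAE-1.2) and -0.85 ± 0.13 (adjusted p = 0.00174, with -0.88 for iMAE-1.1 and -0.81 for iMAE-1.2). FAM198B, for a Golgi protein, was at 7.42 to 17.6 CPM in iMAE-1.1 and 8.98 to 14.6 CPM in iMAE-1.2, against 20.1 to 25.8 CPM in SC. MN1, a transcriptional coregulator, was at 8.59 to 16.4 CPM in iMAE-1.1 and 9.14 to 14.7 CPM in iMAE-1.2, against 20.2 to 24.3 CPM in SC, and C16orf45 at 1.98 to 4.07 CPM in iMAE-1.1 and 2.59 to 4.52 CPM in iMAE-1.2, against 5.2 to 6.95 CPM in SC. None of the 5 genes overlapped between the groups, as the ranking required. FAM198B changed by -0.97 ± 0.22 (adjusted p = 0.0328, with -0.97 for iMAE-1.1 and -0.98 for iMAE-1.2), and by -0.62 without quartet A and -1.48 without quartet B. MN1 changed by -0.88 ± 0.17 (adjusted p = 0.0129, with -0.82 for iMAE-1.1 and -0.93 for iMAE-1.2), and by -0.58 without quartet A and -1.27 without quartet B. C16orf45 changed by -0.86 ± 0.21 (adjusted p = 0.0285, with -0.98 for iMAE-1.1 and -0.74 for iMAE-1.2), and by -0.51 without quartet A and -1.37 without quartet B. The call was lost for FAM198B without iMAE-1.2 replicate 3 or 4, or without any 1 of the 4 SC libraries (adjusted p = 0.0544 to 0.113). For MN1 it was lost without SC replicate 3 (adjusted p = 0.0628). For C16orf45 it was lost without iMAE-1.2 replicate 4, or without any 1 of the 4 SC libraries (adjusted p = 0.0504 to 0.124), and also at -0.74 (adjusted p = 0.0535) with all 6 SC libraries.

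**Figure D3:**
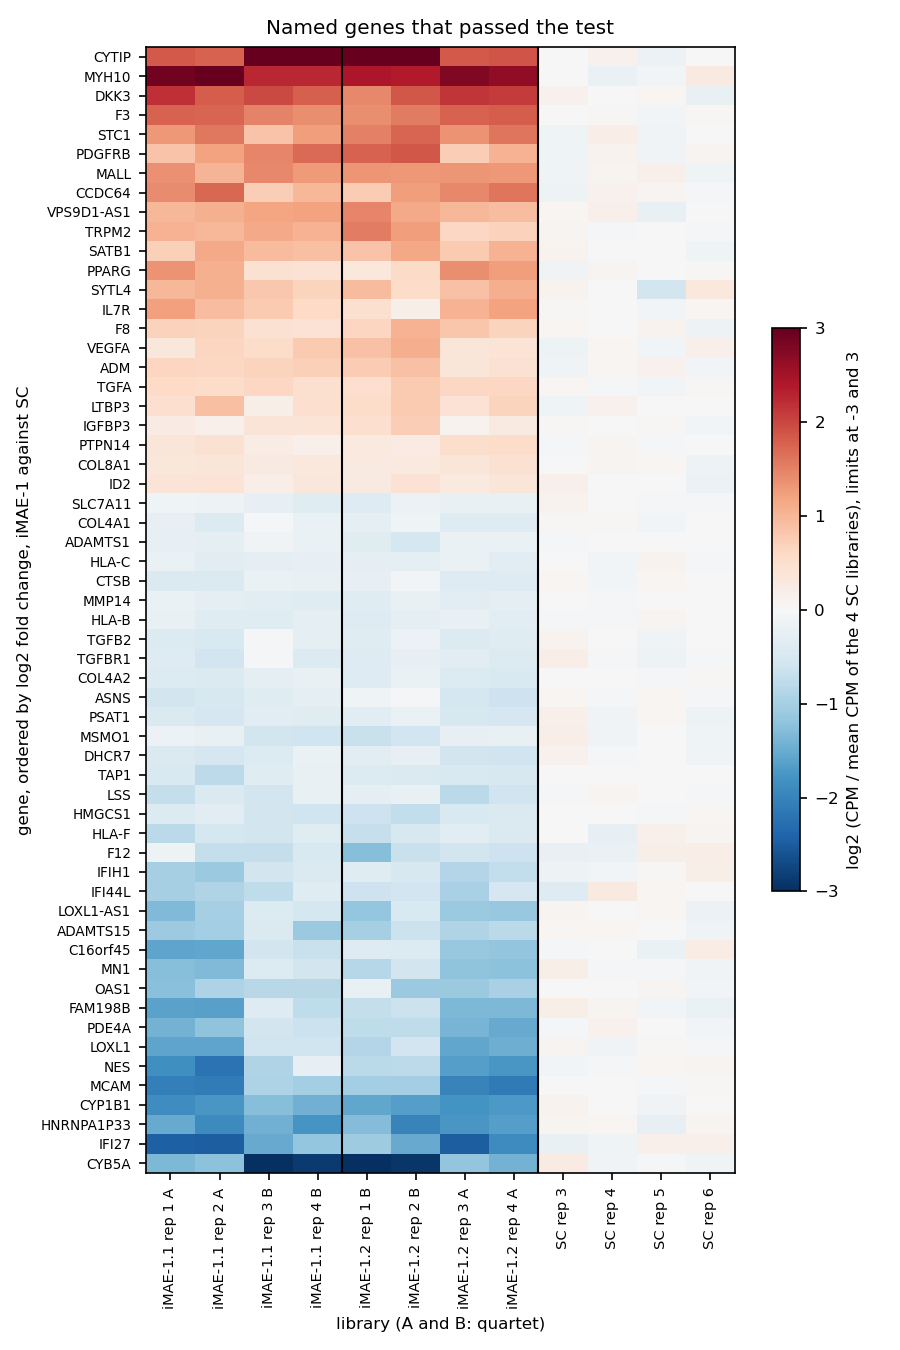
Log2 of the CPM over the mean CPM of the 4 SC libraries for the named genes that passed the test, 1 row per gene in order of the log2 fold change and 1 column per library, with the 8 iMAE-1 libraries left of SC. Colors end at -3 and 3. The quartet is visible within each guide for CYTIP, PPARG, MCAM and CYB5A, and the strongest colors are those of CYTIP, MYH10, IFI27 and CYB5A.

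Genes of the interferon response were lower with iMAE-1. Of 41 members tested, 13 fell and none rose, against 2.03% of all genes tested that fell, and 39 of the 41 had a log2 fold change below 0, against 48.5% of all genes. The median was -0.35, against 0.01 over all genes. With each guide alone 9 fell. The number that fell was 15 without quartet A (7.79% of all genes fell there) and 30 without quartet B (12.2%, with 1 member higher). It was 8 without SC replicate 4 or without SC replicate 6, and 0 with libraries summed in pairs or with the replicate number as a block. With all 6 SC libraries as controls 16 fell, where 299 of 14657 genes tested fell. There 35 of the 41 members were below 0 and the median was -0.40. Calls and medians describe the list and its genes are not independent.

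The promoters of 4 of these genes are shown because they hold matches to the core of the ISRE named above. The core was searched as GAAA, 2 bases of any kind and GAAA, on both strands in the 300 bases around the start site (250 before, 50 after) in RefSeq sequences of GRCh38.p14, whereas the counts were made on hg19. Promoters were found for 32 of the 41 members. Each line gives the 200 bases before the start site, 5′ to 3′ on the gene's strand, with matches in capitals. On the other strand the core begins and ends with TTTC.
IFI27: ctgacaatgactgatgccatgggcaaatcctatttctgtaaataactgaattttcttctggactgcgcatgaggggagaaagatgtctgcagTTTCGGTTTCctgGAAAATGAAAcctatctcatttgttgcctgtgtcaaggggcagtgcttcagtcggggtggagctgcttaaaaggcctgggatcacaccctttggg
IFIT1: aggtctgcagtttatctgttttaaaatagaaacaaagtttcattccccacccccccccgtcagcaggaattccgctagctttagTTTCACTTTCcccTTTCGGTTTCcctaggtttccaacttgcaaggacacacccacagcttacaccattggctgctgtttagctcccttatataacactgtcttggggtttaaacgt
OAS3: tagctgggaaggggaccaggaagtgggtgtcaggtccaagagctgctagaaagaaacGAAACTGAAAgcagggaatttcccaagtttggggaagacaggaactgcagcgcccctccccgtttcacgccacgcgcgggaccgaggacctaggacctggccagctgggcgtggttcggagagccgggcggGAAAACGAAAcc
IFIH1: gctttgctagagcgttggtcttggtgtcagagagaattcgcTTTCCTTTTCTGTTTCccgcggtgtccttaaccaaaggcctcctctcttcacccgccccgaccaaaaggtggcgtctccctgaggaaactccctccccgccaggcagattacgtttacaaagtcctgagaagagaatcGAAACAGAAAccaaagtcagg
The stretch of IFI27 is chr14:94110536-94110735 (plus strand), with matches that begin 108 and 95 bases before the first start site listed. That of IFIT1 is chr10:89392423-89392622 (plus strand), with matches at 116 and 103 bases before it. That of OAS3 is chr12:112938274-112938473 (plus strand), with matches at 143 and 12 bases. That of IFIH1 is chr2:162318685-162318884 (minus strand), with 3 matches at 159, 153 and 21 bases, of which the first pair overlaps. Among the 32 members with a promoter 21 (65.6%) held at least 1 match, and among the 11 of them that fell 8 (72.7%) did, against 996 of 27305 promoters in the table (3.65%). Members of the list are known as interferon targets, so a high share was fixed by the choice of the list. A match is a description of the letters and says nothing of binding.

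IFI27, a mitochondrial protein strongly induced by type I interferon, fell the furthest of the called members. It had 2.32, 2.25, 4.4 and 5.61 CPM in iMAE-1.1 and 5.96, 4.39, 2.25 and 3.41 CPM in iMAE-1.2, against 10.7, 11.5, 14 and 14 CPM in SC. The groups did not overlap, and quartet A was lowest within each guide. Its log2 fold change was -1.72 ± 0.24 (adjusted p = 0.00174), and -1.33 without quartet A and -2.32 without quartet B. It was -1.31 (adjusted p = 0.053) with all 6 SC libraries and so missed the threshold there. By guide it was -1.74 ± 0.29 with iMAE-1.1 (adjusted p = 0.0106) and -1.69 ± 0.29 with iMAE-1.2 (adjusted p = 0.011). OAS1, an enzyme that senses double-stranded RNA and activates RNase L, had 3.51, 4.42, 4.72 and 4.7 CPM in iMAE-1.1 and 7.17, 3.87, 3.86 and 4.23 CPM in iMAE-1.2, against 8.36, 8.35, 8.87 and 7.87 CPM in SC. OAS1 changed by -0.90 ± 0.15 (adjusted p = 0.00326, with -0.94 for iMAE-1.1 and -0.85 for iMAE-1.2). IFIH1, the cytosolic sensor MDA5, had 9.73, 9.01, 13.2 and 14.3 CPM in iMAE-1.1 and 15, 13.8, 10.5 and 11.5 CPM in iMAE-1.2, against 17.3, 18.4, 19.8 and 21.9 CPM in SC, and IFI44L, an interferon-induced gene of less clear role, 4.5, 4.84, 5.3 and 6.98 CPM in iMAE-1.1 and 5.85, 6.09, 4.55 and 6.34 CPM in iMAE-1.2, against 6.86, 10.8, 9.4 and 8.91 CPM in SC. IFIH1 was lower in each iMAE-1 library than in any SC library, while for IFI44L the highest iMAE-1 library, at 6.98 CPM, passed the lowest SC library, at 6.86 CPM. The changes were -0.68 ± 0.13 (adjusted p = 0.007, with -0.73 for iMAE-1.1 and -0.62 for iMAE-1.2) for IFIH1 and -0.68 ± 0.14 (adjusted p = 0.0151, with -0.71 for iMAE-1.1 and -0.65 for iMAE-1.2) for IFI44L. The call of IFI44L was lost without SC replicate 4, 5 or 6 (adjusted p = 0.0548 to 0.0744). Of the other called members, IFIT1, which binds viral RNA, changed by -0.61 ± 0.10, OAS3 by -0.41 ± 0.06 and IFIT3 by -0.34 ± 0.07. USP18, which restrains signalling at the receptor, changed by -0.55 ± 0.09. The RNA sensor DDX58, also named RIG-I, changed by -0.43 ± 0.09 and DDX60 by -0.41 ± 0.07. SAMD9 at -0.28 ± 0.07 and SAMD9L at -0.25 ± 0.07 were the smallest of the called falls.

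MHC class I genes, which present peptides to cytotoxic T cells and are raised by interferon, had 6 falls and no rise among 21 tested, against 2.03% of all genes that fell. All 21 had a log2 fold change below 0, against 48.5% of all genes, with a median of -0.17. The number called was 4 with each guide, 11 without quartet A (7.79% of all genes fell there) and 8 without quartet B (12.2%). It was 3 without SC replicate 3, 5 or 6 and 0 with libraries summed in pairs or with the replicate number as a block. With all 6 SC libraries as controls 6 fell, where 299 of 14657 genes tested fell. There 19 of the 21 were below 0 and the median was -0.23. HLA-B was at 312 to 343 CPM in iMAE-1.1 and 308 to 345 CPM in iMAE-1.2, against 389 to 428 CPM in SC, and HLA-C at 205 to 224 CPM in iMAE-1.1 and 206 to 223 CPM in iMAE-1.2, against 242 to 277 CPM in SC. TAP1, a subunit of the transporter that brings peptides into the endoplasmic reticulum, was at 33.4 to 49.3 CPM in iMAE-1.1 and 41.3 to 42.8 CPM in iMAE-1.2, against 56.4 to 57.9 CPM in SC, and HLA-F at 5.43 to 7.3 CPM in iMAE-1.1 and 5.85 to 7.48 CPM in iMAE-1.2, against 7.97 to 10.5 CPM in SC. All 4 were lower in every iMAE-1 library than in any SC library. The log2 fold changes were -0.31 ± 0.05 (adjusted p = 0.00299, with -0.31 for iMAE-1.1 and -0.30 for iMAE-1.2), -0.26 ± 0.05 (adjusted p = 0.00707, with -0.26 for iMAE-1.1 and -0.27 for iMAE-1.2), -0.44 ± 0.08 (adjusted p = 0.00405, with -0.43 for iMAE-1.1 and -0.45 for iMAE-1.2) and -0.52 ± 0.11 (adjusted p = 0.015, with -0.56 for iMAE-1.1 and -0.47 for iMAE-1.2) in that order. HLA-B was at -0.49 (adjusted p = 0.0157) with all 6 SC libraries. TAPBP, which helps load peptides, was also called, at -0.19 ± 0.05. The HLA genes are near-identical in places, so the split of reads among them is uncertain. The call of HLA-F was lost without SC replicate 3, 5 or 6 (adjusted p = 0.0553 to 0.0765).

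Genes of sterol synthesis and its control were in part lower with iMAE-1. Of 32 tested members of a list of sterol and fatty acid synthesis, 15 fell and none rose, against 2.03% of all genes tested that fell, and 31 had a log2 fold change below 0, against 48.5% of all genes, with a median of -0.27. All 15 belong to sterol synthesis and its control. None of the fatty acid genes FASN, ACACA, ACLY, SCD, FADS1, FADS2, ELOVL6 and ACSS2 was called, with -0.38 (FADS2) to -0.005 (ACLY). With each guide alone 8 fell. The number that fell was 19 without quartet A (7.79% of all genes fell there) and 23 without quartet B (12.2%, with 1 member higher). It was 7 without SC replicate 3, 8 without replicate 4 or 5, 9 without replicate 6 and 6 with all 6 SC libraries as controls. With libraries summed in pairs, or with the replicate number as a block, it was 0. HMGCS1, the enzyme that makes HMG-CoA, had 199.7, 209, 181 and 174 CPM in iMAE-1.1 and 171, 159, 194 and 197 CPM in iMAE-1.2, against 266, 266, 257 and 271 CPM in SC. No iMAE-1 library reached the lowest SC library. HMGCS1 changed by -0.51 ± 0.06 (adjusted p = 0.000452, with -0.47 for iMAE-1.1 and -0.56 for iMAE-1.2), and by -0.32 (adjusted p = 0.135) with all 6 SC libraries. DHCR7, the last enzyme of cholesterol synthesis, was at 77.2 to 95.3 CPM in iMAE-1.1 and 73.2 to 92.2 CPM in iMAE-1.2, against 102 to 119.6 CPM in SC. LSS, which closes the sterol rings, was at 70.6 to 99.8 CPM in iMAE-1.1 and 66.6 to 99.4 CPM in iMAE-1.2, against 111 to 123 CPM in SC, and MSMO1, a methylsterol oxidase, at 123 to 166 CPM in iMAE-1.1 and 117 to 159 CPM in iMAE-1.2, against 170.1 to 212 CPM in SC. The changes were -0.40 ± 0.07 (adjusted p = 0.00568, with -0.38 for iMAE-1.1 and -0.43 for iMAE-1.2) for DHCR7, -0.46 ± 0.10 (adjusted p = 0.0251, with -0.47 for iMAE-1.1 and -0.46 for iMAE-1.2) for LSS and -0.39 ± 0.10 (adjusted p = 0.0487, with -0.37 for iMAE-1.1 and -0.42 for iMAE-1.2) for MSMO1. Neither DHCR7, at -0.25 (adjusted p = 0.164), nor LSS, at -0.28 (adjusted p = 0.201), was called with all 6 SC libraries. For MSMO1 the value was -0.60 without quartet A and -0.22 without quartet B, and for LSS -0.31 without quartet A and -0.64 without quartet B. The call of LSS was lost without any 1 of the 4 SC libraries (adjusted p = 0.0715 to 0.0909), and that of MSMO1 without iMAE-1.1 replicate 2, 3 or 4, or without iMAE-1.2 replicate 1 or 2, or without any 1 of the 4 SC libraries (adjusted p = 0.0541 to 0.177).

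Of the other called enzymes IDI1 changed by -0.30 ± 0.08 and FDPS, which makes farnesyl diphosphate, by -0.27 ± 0.05. FDFT1, which makes squalene, changed by -0.28 ± 0.05 and SQLE, which oxidises it, by -0.37 ± 0.05. Of the later enzymes CYP51A1 changed by -0.34 ± 0.06, NSDHL by -0.33 ± 0.08 and SC5D by -0.35 ± 0.07. SREBF2, the transcription factor of the pathway, changed by -0.28 ± 0.06, INSIG1, which holds that factor back, by -0.39 ± 0.05, and the sterol carrier STARD4 by -0.31 ± 0.08. Not called were the mevalonate kinase MVK, at -0.32 ± 0.10, PMVK, which acts after it, at 0.06 ± 0.09, and MVD, the decarboxylase that follows, at -0.21 ± 0.07, and of the later enzymes TM7SF2, HSD17B7 and EBP, at -0.25 (EBP) to -0.04 (TM7SF2). SREBF1, at -0.26 ± 0.13, was not called either. A sterol element spelled TCACNCCAC was present in 1 of the 26 member promoters found (3.85%), that of SREBF2, against 1.15% of all promoters of the table. Only this spelling was searched, so a promoter without a match may hold the element in other letters. Neither a match nor its absence says anything of binding.

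Hypoxia and HIF target genes were in part higher with iMAE-1. Of 29 tested, 9 rose and none fell, against 1.79% of all genes that rose, and 21 were above 0, against 51.5% of all genes, with a median of 0.19. With iMAE-1.1 alone 5 rose and with iMAE-1.2 alone 8. Without quartet A 15 rose and 1 fell, where 7.58% of all genes rose and 7.79% fell. Without quartet B 14 rose and 4 fell, where 9.39% of all genes rose and 12.2% fell, so the share that fell was near that of all genes. The number that rose was 5 without SC replicate 3, 6 without SC replicate 4 or 5, 1 with libraries summed in pairs and 0 with the replicate number as a block. With all 6 SC libraries as controls 2 rose and the median was -0.01, so the direction of the list depended on the choice of SC libraries. VEGFA, the main growth factor of blood vessels, had 264, 326, 308 and 361 CPM in iMAE-1.1 and 388, 449, 269.8 and 281 CPM in iMAE-1.2, against 188, 219, 199 and 234 CPM in SC. The groups did not overlap. Its log2 fold change was 0.65 ± 0.14 (adjusted p = 0.0205, with 0.58 for iMAE-1.1 and 0.72 for iMAE-1.2), and 0.83 without quartet A and 0.43 without quartet B, and 0.48 (adjusted p = 0.064) with all 6 SC libraries. The call of VEGFA was lost without SC replicate 3, 4 or 5 (adjusted p = 0.0601 to 0.0887). ADM, the vasodilator peptide adrenomedullin, had 81, 80.2, 82.8 and 85.2 CPM in iMAE-1.1 and 88.2, 96.7, 66.8 and 71.5 CPM in iMAE-1.2, against 48.2, 54.5, 57 and 49.3 CPM in SC, and changed by 0.64 ± 0.09 (adjusted p = 0.001, with 0.66 for iMAE-1.1 and 0.63 for iMAE-1.2). TGFA, a ligand of the EGF receptor, had 187, 183, 189 and 173 CPM in iMAE-1.1 and 175, 214, 192 and 192 CPM in iMAE-1.2, against 129, 122, 118 and 128 CPM in SC. It changed by 0.60 ± 0.06 (adjusted p = 2.63e-05, with 0.56 for iMAE-1.1 and 0.64 for iMAE-1.2), and by -0.14 (adjusted p = 0.753) with all 6 SC libraries, the opposite sign. CCND1, the cyclin of early cell cycle entry, changed by 0.53 ± 0.05, the enolase ENO2 by 0.55 ± 0.08, ANGPTL4, an inhibitor of lipoprotein lipase, by 1.28 ± 0.26 and the carbonic anhydrase CA12 by 0.27 ± 0.06.

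The factors upstream of these targets were not called. EPAS1, which encodes HIF-2α, the main HIF subunit of renal carcinoma, had 45, 41.2, 54.8 and 49.1 CPM in iMAE-1.1 and 47.4, 64.2, 41.1 and 41.4 CPM in iMAE-1.2, against 48, 50.4, 45.1 and 47.3 CPM in SC. The iMAE-1 libraries lay on both sides of SC. The log2 fold change of EPAS1 was 0.02 ± 0.11 (adjusted p = 0.964, with -0.00 for iMAE-1.1 and 0.03 for iMAE-1.2), and 0.19 without quartet A and -0.18 without quartet B, the last with an adjusted p of 0.0423. As the quartets were cut from the same data, that p-value is no support for a change. EPAS1 was at -0.57 (adjusted p = 0.147) with all 6 SC libraries. HIF1A was at 8.17 to 10.010 CPM in iMAE-1.1 and 8.6 to 9.62 CPM in iMAE-1.2, against 7.003 to 8.63 CPM in SC, and VHL at 97.6 to 115 CPM in iMAE-1.1 and 104 to 115 CPM in iMAE-1.2, against 96.8 to 103 CPM in SC. Neither was called, with 0.16 ± 0.09 (adjusted p = 0.409, with 0.16 for iMAE-1.1 and 0.16 for iMAE-1.2) and 0.12 ± 0.06 (adjusted p = 0.276, with 0.10 for iMAE-1.1 and 0.15 for iMAE-1.2). PAX8, a transcription factor of the kidney lineage, was at 400.01 to 458 CPM in iMAE-1.1 and 383 to 466 CPM in iMAE-1.2, against 386 to 439 CPM in SC, and VIM, the filament protein of mesenchymal cells, at 5935 to 6884 CPM in iMAE-1.1 and 6286 to 6878 CPM in iMAE-1.2, against 6032 to 7048 CPM in SC. CDH1, E-cadherin, was at 1.26 to 2.01 CPM in iMAE-1.1 and 1.21 to 2.18 CPM in iMAE-1.2, against 1.12 to 2.18 CPM in SC. These 3 had overlapping groups and were not called, with 0.06 ± 0.06 (adjusted p = 0.678, with 0.07 for iMAE-1.1 and 0.05 for iMAE-1.2), -0.00 ± 0.06 (adjusted p = 0.992, with -0.01 for iMAE-1.1 and 0.01 for iMAE-1.2) and -0.04 ± 0.23 (adjusted p = 0.952, with -0.06 for iMAE-1.1 and -0.02 for iMAE-1.2).

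**Figure D4:**
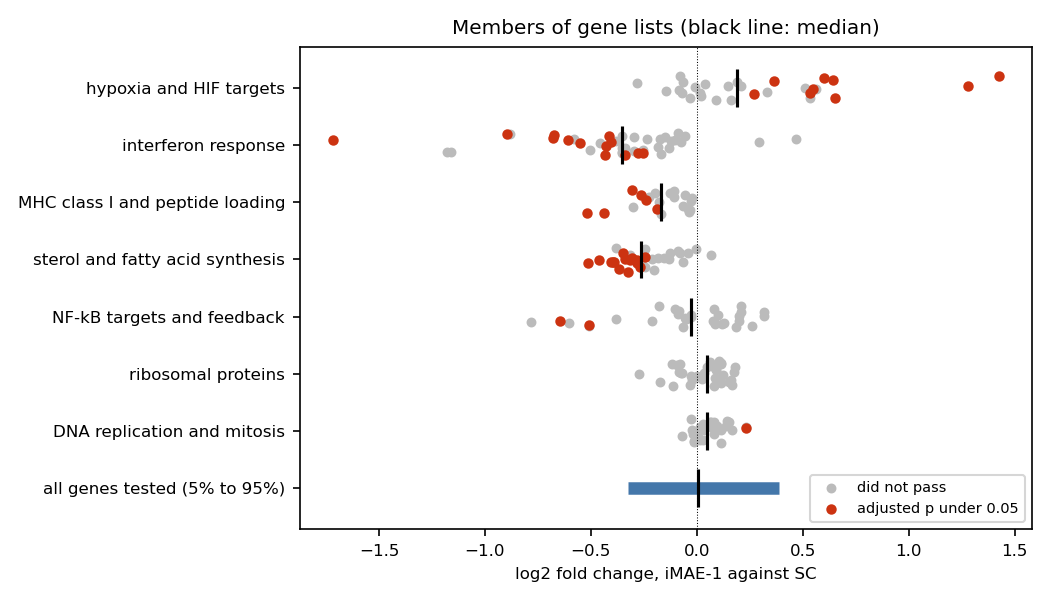
Log2 fold change of iMAE-1 against SC for each tested member of 7 gene lists, with called genes in red, others in gray and the list's median as a black line. The blue bar spans the middle of all genes tested (5% to 95%). The 13 called interferon, 6 MHC class I and 15 sterol members lie left of 0 and the 9 called hypoxia members right of 0.

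CXCR4, a chemokine receptor and a HIF target in renal carcinoma, was too low to pass the count filter and was not tested with the other genes. It had 1, 1, 5 and 3 reads in iMAE-1.1 and 1, 3, 0 and 0 reads in iMAE-1.2, against 10, 9, 9 and 19 reads in SC. The sums were 14 reads in the 8 iMAE-1 libraries and 47 reads in the 4 SC libraries, or 0 to 0.323 CPM against 0.6 to 1.09 CPM, without overlap. In the fit without a filter its log2 fold change was -2.92 (adjusted p = 0.00222), a value that depends on few reads. It was -2.30 with iMAE-1.1 (adjusted p = 0.0638) and -3.54 with iMAE-1.2 (adjusted p = 0.00805), and with libraries summed in pairs the pooled value had an adjusted p of 0.298. It was -2.23 without quartet A and -4.93 without quartet B. Of the other genes of the CXCR4 chemokine axis 7 were tested and none was called.

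Coagulation, protease and matrix genes moved in both directions. The counts here are to be read against 1.79% of all genes that rose and 2.03% that fell. Of 16 coagulation genes 2 rose and 2 fell. Beside F3, F8, the factor VIII gene, was at 5.06 to 6.02 CPM in iMAE-1.1 and 5.85 to 7.71 CPM in iMAE-1.2, against 3.39 to 4.002 CPM in SC and changed by 0.69 ± 0.12 (adjusted p = 0.00537, with 0.56 for iMAE-1.1 and 0.82 for iMAE-1.2), and by 0.31 (adjusted p = 0.278) with all 6 SC libraries. F12, for the factor that starts the contact pathway, was at 9.34 to 13.9 CPM in iMAE-1.1 and 6.4 to 10.5 CPM in iMAE-1.2, against 13.2 to 17.7 CPM in SC and changed by -0.61 ± 0.14 (adjusted p = 0.021, with -0.49 for iMAE-1.1 and -0.73 for iMAE-1.2), and by -0.43 (adjusted p = 0.122) with all 6 SC libraries. The call of F12 was lost without SC replicate 5 or 6 (adjusted p = 0.0936 to 0.1). THBD, thrombomodulin, changed by -0.68 ± 0.17. Of 21 urokinase and matrix protease genes 4 fell and none rose. MMP14, a membrane-bound collagenase, was at 159 to 179 CPM in iMAE-1.1 and 157 to 173 CPM in iMAE-1.2, against 199.6 to 207 CPM in SC, and changed by -0.30 ± 0.05 (adjusted p = 0.00221, with -0.29 for iMAE-1.1 and -0.31 for iMAE-1.2), and by -0.49 (adjusted p = 0.0161) with all 6 SC libraries. CTSB, a lysosomal protease, changed by -0.29 ± 0.07 (adjusted p = 0.0228, with -0.32 for iMAE-1.1 and -0.27 for iMAE-1.2), and by -0.19 without quartet A and -0.42 without quartet B. The change was -0.26 ± 0.06 (adjusted p = 0.0248, with -0.21 for iMAE-1.1 and -0.32 for iMAE-1.2) in ADAMTS1, a secreted protease. Their calls were lost without any 1 of the 4 SC libraries (adjusted p = 0.0508 to 0.0966) for CTSB, and without any 1 of the 4 SC libraries (adjusted p = 0.0675 to 0.0867) for ADAMTS1, and ADAMTS1 was at 0.02 (adjusted p = 0.967) with all 6 SC libraries. MMP15 changed by -0.65 ± 0.17. Of 14 collagen genes 1 rose and 2 fell. The basement membrane chains COL4A1, at -0.26 ± 0.07 (adjusted p = 0.041, with -0.23 for iMAE-1.1 and -0.29 for iMAE-1.2), and COL4A2, at -0.35 ± 0.06 (adjusted p = 0.00291, with -0.33 for iMAE-1.1 and -0.36 for iMAE-1.2), fell, and COL8A1 rose, at 0.34 ± 0.06 (adjusted p = 0.00556, with 0.33 for iMAE-1.1 and 0.35 for iMAE-1.2). With all 6 SC libraries COL4A1 was at -0.46 (adjusted p = 0.0331) and COL4A2 at -0.58 (adjusted p = 0.0161), both further below 0. COL8A1 had the opposite sign, -0.35 (adjusted p = 0.373), with all 6 SC libraries. The value of COL4A1 was -0.16 without quartet A and -0.37 without quartet B, and its call was lost without iMAE-1.1 replicate 1, 2 or 4, or without iMAE-1.2 replicate 1, 3 or 4, or without any 1 of the 4 SC libraries (adjusted p = 0.0538 to 0.14). Of 23 integrin and laminin genes 1 rose, ITGA3 at 0.33 ± 0.06, which is a single call and no result about the list.

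Growth factor and signalling lists had few calls, to be read against the same 1.79% higher and 2.03% lower among all genes. Of 5 PDGF genes PDGFRB alone was called. Of 23 YAP and TAZ targets 3 rose and none fell: F3, PTPN14, a phosphatase that restrains YAP, at 0.36 ± 0.07 (adjusted p = 0.00973, with 0.30 for iMAE-1.1 and 0.42 for iMAE-1.2), and IGFBP3, a carrier of insulin-like growth factors, at 0.36 ± 0.09 (adjusted p = 0.0444, with 0.30 for iMAE-1.1 and 0.42 for iMAE-1.2). IGFBP3 was at 1417 to 1699 CPM in iMAE-1.1 and 1384 to 2134 CPM in iMAE-1.2, against 1208 to 1302 CPM in SC. The value of IGFBP3 was 0.51 without quartet A and 0.19 without quartet B, and that of PTPN14 0.24 without quartet A and 0.47 without quartet B. The call of IGFBP3 was lost without iMAE-1.1 replicate 1, 3 or 4, or without iMAE-1.2 replicate 1, or without any 1 of the 4 SC libraries (adjusted p = 0.0625 to 0.143). Both had the opposite sign with all 6 SC libraries, -0.27 (adjusted p = 0.472) for PTPN14 and -0.10 (adjusted p = 0.765) for IGFBP3. Of 25 genes of the TGF-beta system 2 rose and 2 fell. LTBP3, which stores the latent ligand in the matrix, rose by 0.58 ± 0.11 (adjusted p = 0.0104, with 0.54 for iMAE-1.1 and 0.62 for iMAE-1.2) and ID2, an inhibitor of helix-loop-helix factors, by 0.34 ± 0.07 (adjusted p = 0.00924, with 0.33 for iMAE-1.1 and 0.34 for iMAE-1.2). TGFB2, a ligand, changed by -0.31 ± 0.07 (adjusted p = 0.0234, with -0.29 for iMAE-1.1 and -0.33 for iMAE-1.2) and TGFBR1, the type I receptor, by -0.34 ± 0.09 (adjusted p = 0.0428, with -0.34 for iMAE-1.1 and -0.33 for iMAE-1.2). ID2 was at -0.05 (adjusted p = 0.861) and TGFB2 at -0.13 (adjusted p = 0.507) with all 6 SC libraries. Calls were lost for LTBP3 without SC replicate 3 (adjusted p = 0.0551). For ID2 the call was lost without SC replicate 6 (adjusted p = 0.051). For TGFB2 it was lost without SC replicate 3, 4 or 6 (adjusted p = 0.0756 to 0.11), and for TGFBR1 without iMAE-1.1 replicate 1, 2 or 4, or without iMAE-1.2 replicate 1, 3 or 4, or without any 1 of the 4 SC libraries (adjusted p = 0.0507 to 0.2). Of 29 immediate-early and ERK output genes CCND1 rose and MYC fell, at -0.20 ± 0.05. Of 32 NF-kB targets 2 fell, VCAM1 at -0.51 ± 0.12 and CXCL5 at -0.64 ± 0.13. Of 12 interleukin-1 genes 2 fell, the receptor IL1R1 at -0.63 ± 0.08 and IL18 at -0.39 ± 0.08.

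Metabolic and stress lists other than that of sterol and fatty acid synthesis had 0 to 3 calls each, beside 3.82% of all genes called. Of 21 genes of the ATF4 response and serine synthesis 3 fell. PSAT1, of serine synthesis, was at 178 to 199 CPM in iMAE-1.1 and 179 to 219 CPM in iMAE-1.2, against 228 to 283 CPM in SC and changed by -0.39 ± 0.07 (adjusted p = 0.00507, with -0.41 for iMAE-1.1 and -0.37 for iMAE-1.2). ASNS, which makes asparagine, changed by -0.37 ± 0.09 (adjusted p = 0.0413, with -0.42 for iMAE-1.1 and -0.32 for iMAE-1.2), and SLC7A11, the cystine transporter, by -0.23 ± 0.06 (adjusted p = 0.0465, with -0.22 for iMAE-1.1 and -0.25 for iMAE-1.2). The value of ASNS was -0.21 without quartet A and -0.56 without quartet B. Calls were lost for ASNS without iMAE-1.1 replicate 1, 2 or 3, or without iMAE-1.2 replicate 3, or without any 1 of the 4 SC libraries (adjusted p = 0.0515 to 0.146), and for SLC7A11 without iMAE-1.1 replicate 2, 3 or 4, or without iMAE-1.2 replicate 1, 3 or 4, or without any 1 of the 4 SC libraries (adjusted p = 0.0536 to 0.175). With all 6 SC libraries the 3 values were -0.09 (adjusted p = 0.788) for PSAT1, -0.10 (adjusted p = 0.725) for ASNS and -0.13 (adjusted p = 0.286) for SLC7A11. Of 17 genes of the unfolded protein response HYOU1 fell, at -0.34 ± 0.05. Of 22 NRF2 and antioxidant genes SLC7A11 fell and AKR1C3, an aldo-keto reductase, rose, at 1.84 ± 0.43. Of 21 glycolysis genes PFKFB4 rose, at 0.56 ± 0.08, and of 7 metallothioneins MT1L, which is near-identical to other family members, fell. The MT1L level was 0.0576 to 0.331 CPM in iMAE-1 (19 reads over the 8 libraries), against 3.62 to 4.67 CPM in SC (243 reads over the 4). Its fitted value was -4.74 ± 0.27, a size that depends on the few reads in iMAE-1. The minimum of 5 CPM kept MT1L out of the ranking. In the metallothionein list 1 gene also fell with the replicate block, with all 6 SC libraries, with libraries summed in pairs and with a threshold of 1. Of 10 genes of the AHR pathway CYP1B1 and TIPARP, at -0.26 ± 0.07, fell. None of 32 respiratory chain genes or of 33 ribosomal protein genes was called. 

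Lists of cell cycle and lineage had 0 to 2 calls each. A single call in a list of this size is close to the 3.82% of all genes that were called and is no result about the list. Of 34 DNA replication and mitosis genes CCNE2 rose, at 0.23 ± 0.06. Of 22 p53 targets PLK3 rose, at 0.36 ± 0.09, and TP53INP1 fell, at -0.82 ± 0.16. Of 25 genes of epithelial-mesenchymal transition and junctions 2 fell, the cadherin CDH13 at -0.53 ± 0.07 and the keratin KRT19 at -0.27 ± 0.07. Of 17 renal lineage and tubule genes 2 fell, HNF4G at -0.41 ± 0.10 and MME, a membrane peptidase, at -0.50 ± 0.09. None of the 4 myeloid and 2 endothelial markers tested was called, and no lymphoid marker had enough reads to be tested. Some called genes were named after their values were seen, unless the naming rule given below also took them. They are genes of lists with fewer than 3 calls, called members under 5 CPM, and called members beyond the 4 taken from a list. Their calls were not recomputed without single libraries.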

How the data were processed

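Polyadenylated RNA of 786-M1A cells was sequenced from libraries of a stranded kit, per the labels' protocols. Bowtie2, RSEM and hg19 are named in the submitters' processing notes. Their versions and the strand setting of the counting were not given in the sources used. The deposited expected count is the number of reads that RSEM, run by the authors, assigned to a gene, and 27.8% to 30.9% of a library's genes had fractional values, from reads split between genes. The deposited TPM is the authors' level per length and depth, per the file headers, and was used in 1 alternative.

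The tests used edgeR 4.0.16 (R 4.3.3) on expected counts after rounding, with filterByExpr at a minimum count of 10, TMM factors, a robust quasi-likelihood fit of 3 groups and Benjamini-Hochberg adjustment over 14560 genes. The iMAE-1 value is the mean of the 2 guides minus SC. The guides share their SC libraries, so their values are not independent of each other. CPM are counts per 1e6 of the library's tested total times its TMM factor. Named by rule were the 14 strongest called rises and the 14 strongest called falls (mean of at least 5 CPM in a group, no overlap), 12 genes in any case, and up to 4 called members of each of the 30 lists with at least 3 calls. The members and lists were chosen with earlier results of these data known. Among the alternatives were the tools DESeq2 1.42.0 and limma 3.58.1 (on log2(TPM + 1)), RLE scaling, other filters, a replicate block, all 6 SC libraries, libraries summed in pairs, a threshold of 1, other groups in the fit, and each library left out. Fits without a quartet or with quartets as groups were chosen after seeing the data. The method was tested on simulated data. Some list members that enter the counts are not reported here by name. Figures were made with matplotlib 3.10.9.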

Additional observations from a re-analysis of the deposited data

Results flagged for a closer look

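Within groups of 4 libraries, 5 of 195 sets of values (65 named genes in 3 groups) had a library far from the other three, where chance gives about 1 in 20. OAS1 was at 7.17 CPM in iMAE-1.2 replicate 1, against 3.86 to 4.23 CPM in the other iMAE-1.2 libraries. ADAMTS15 was at 6.85 CPM in iMAE-1.1 replicate 3, against 4.29 to 4.59 CPM in the other iMAE-1.1 libraries. LOXL1-AS1 was at 5.62 CPM in iMAE-1.2 replicate 2, against 3.42 to 3.57 CPM in the other iMAE-1.2 libraries. HNRNPA1P33 was at 6.40 CPM in SC replicate 5, against 7.87 to 7.99 CPM in the other SC libraries. IGFBP3 was at 1208 CPM in SC replicate 6, against 1296 to 1302 CPM in the other SC libraries.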

How the results depend on the processing

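Counts of called genes are given for iMAE-1, iMAE-1.1 and iMAE-1.2 against SC in that order, with 556, 186 and 302 as reported. They were 855, 417 and 590 with DESeq2, 45 and 51 for the 2 guides with all 6 SC libraries (474 for iMAE-1, 175 higher and 299 lower), 11, 10 and 9 with libraries summed in pairs, and 8, 6 and 8 with a threshold of 1. Only the compared groups in the fit gave 300 for iMAE-1.1. With limma on log2(TPM + 1), 174 genes were higher and 295 lower for iMAE-1. Without quartet A the counts were 2277, 924 and 2092, with 17 between the guides, without quartet B 3187, 1932 and 2341, and with guide and quartet as 4 groups 2111, 1366 and 1625. Leaving out 1 library gave 216 to 581, 84 to 216 and 111 to 339, and 0 to 3 between the guides. The replicate numbers did not pair the libraries, since same-numbered libraries of the 2 guides had deviations that correlated at -0.39 to -0.23, and with the replicate block 5, 0 and 0 genes were called. Replicates 1 and 2 were only in iMAE-1 and replicates 5 and 6 only in SC. In that fit SC was thus compared through its replicates 3 and 4 alone, which limits what it can call. At an unadjusted p under 0.05 the replicate block had 871, 683 and 813 of the 14560 genes. These numbers are near the share of 0.05 that chance alone gives.

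With all 6 SC libraries the log2 fold changes of some called genes had the opposite sign, as had EPAS1, not called, at -0.57. For iMAE-1 these were ADAMTS1 at 0.015, TGFA at -0.14, IGFBP3 at -0.10, PTPN14 at -0.27, ID2 at -0.051 and COL8A1 at -0.35. For iMAE-1.1 they were TGFA at -0.18, ID2 at -0.055 and COL8A1 at -0.36, and for iMAE-1.2 TGFA at -0.11, PTPN14 at -0.22, ID2 at -0.048 and COL8A1 at -0.34. For iMAE-1 another 22 of the called genes named by rule kept their sign with all 6 SC libraries but were not called there. Without quartet B, EPAS1 was at -0.18. Of the 58 called genes named by rule, 32 were called in each of the 12 fits without a library. The other called genes named here were not checked in this way. The cause of these shifts was not tested. RLE factors, no filter and a minimum count of 50 kept each of the counts against SC within 1.5 times. Genes with few reads, such as CXCR4, were limited by depth.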
